A study of Mus musculus with 8 samples.

Results

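The genes described here encode the subunits of voltage-gated sodium channels, voltage-gated calcium channels and hyperpolarization-activated cyclic nucleotide-gated (HCN) channels, measured in nuclei of mouse primary visual cortex (V1). They were chosen by gene symbol alone, as every measured gene named Scn followed by a number and the letter a or b, Cacna1a to Cacna1i and Cacna1s, Cacna2d1 to Cacna2d4, Cacnb1 to Cacnb4, Cacng1 to Cacng8 and Hcn followed by a number. This gave 44 of the 26711 genes in the count matrix. The 44 members were 10 sodium channel alpha subunits, 4 sodium channel beta subunits, 10 calcium channel alpha1 subunits, 4 alpha2delta subunits, 4 calcium channel beta subunits, 8 gamma subunits (most of which are better known as transmembrane AMPA receptor regulatory proteins, TARPs) and 4 HCN subunits.

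Each voltage-gated sodium and calcium channel is built around a single large pore-forming alpha subunit, which opens when the membrane depolarizes, and smaller auxiliary subunits that set its delivery to the membrane and its kinetics. Sodium channels carry the rising phase of the action potential, high-voltage-activated calcium channels couple spikes to transmitter release and to transcription, and low-voltage-activated T-type calcium channels support burst firing. HCN channels open on hyperpolarization, pass a mixed cation current and set the resting properties of dendrites, and the TARPs accompany AMPA-type glutamate receptors to the synapse.

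The study asked how the glucocorticoid receptor (GR, gene Nr3c1) in astrocytes and visual experience together shape gene expression in V1. All animals were GRfl/fl, so both genotypes carried loxP-flanked Nr3c1 alleles, and all received an adeno-associated virus at birth. In GR-KO animals the AAV2/5 vector carried Cre recombinase under GfaABC1D, a promoter used for astrocytes, and in GR-Con animals it carried ΔCre, an inactive form, in its place. Both vectors also encoded a membrane-tagged green fluorescent protein (EGFP-CAAX), released by a self-cleaving peptide, and held the elements 4x6T and WPRE. Mice of each genotype were either normally reared (NR) or dark-reared (DR), and V1 was taken at postnatal day 21 (P21). Nuclei stained with the DNA dye DRAQ5 and, per the study's methods, negative for green fluorescence were sorted and profiled by single-nucleus RNA sequencing with a 10X 3′ kit. There were 8 libraries, with 2 in each of the 4 groups, 1 from a male and 1 from a female, so every p-value below measures the spread between 2 animals per group and includes any difference between the sexes.

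The matrix held 102330 nuclei in 20 cell types named by the authors, of which 8 were excitatory neurons, 5 inhibitory neurons and 7 non-neuronal. Libraries held 9517 to 15161 nuclei and 168632129 to 288774016 unique molecular identifiers (UMIs, each 1 captured RNA molecule), and the median UMI count per nucleus ranged from 14861 in DR GR-KO female to 29223 in NR GR-KO female. Of 50 measured marker genes, 43 had their highest level in the cell type they mark. No measured marker of L4 (Rorb, Rspo1), L5PT (Bcl6) or L6IT (Osr1, Oprk1) was highest in its own type among the 20. Rorb, Rspo1 and Bcl6 were highest in astrocytes, Osr1 in vascular leptomeningeal cells and Oprk1 in Sst neurons. Their order among neuron types alone was not checked. These markers therefore do not decide on the 3 names, which rest on the authors' annotation. Of 101098 distinct barcodes, 1220 occurred in more than 1 library. Cre UMIs were found in astrocytes of the 4 GR-KO libraries (43 to 86) and in none of the 4 GR-Con libraries (0). They were also found in L2/3 neurons of the 4 GR-KO libraries (47 to 262 UMIs, or 0.717 to 3.51 counts per 1000000 UMIs of the cell type, CPM, against 4.14 to 10.4 in astrocytes) and in none of the GR-Con libraries. A second feature of the count matrix, named delCre, was found in both genotypes, with 26 to 44 UMIs in astrocytes of GR-KO and 21 to 35 in those of GR-Con, and with 41 to 176 in L2/3 of GR-KO and 4 to 17 in L2/3 of GR-Con, so it did not separate the vectors. Whether Cre acted in neurons was not tested, so GR-KO names the vector given and not a loss limited to astrocytes. Counts of Nr3c1 in astrocytes were 268 to 284 CPM in GR-KO and 207 to 263 in GR-Con, but these are counts per gene from a 3′ kit and do not test for the loss of a floxed exon. In separate experiments the study reported substantially weaker GR binding to chromatin in GFP-labelled astrocyte nuclei of GR-KO animals. All levels below are CPM, with UMIs of that cell type in that library as the total. Levels are compared between cell types and groups within a gene and never between genes, since a longer gene gives more nuclear reads.

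Levels across cell types came first. They are given without a test, because the cell types were clustered on the same nuclei, and over the libraries with at least 10 nuclei of the type. Of the 44 members, 36 had their highest mean in a neuron type (18 in an inhibitory and 18 in an excitatory type) and 8 in a non-neuronal type. Neuron types were 13 of the 20 cell types. For 11 members the libraries of the highest type did not overlap those of the type in second place. Among these were Cacna1e in L6b, Cacna2d1 and Cacnb2 in Lamp5, Cacna2d2 and Hcn2 in Pvalb, Cacnb4 in L5NP, Cacng3 in L2/3, Cacna1d in chandelier cells (ChC), Cacng4 in oligodendrocyte progenitors (OPC) and Cacna2d4 in oligodendrocytes (Oligo). ChC led for 6 members, but only 3 libraries held enough of these nuclei, with 10 to 14 in each. The shares over all genes for the counts in this paragraph were not computed.

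**Figure D1:**
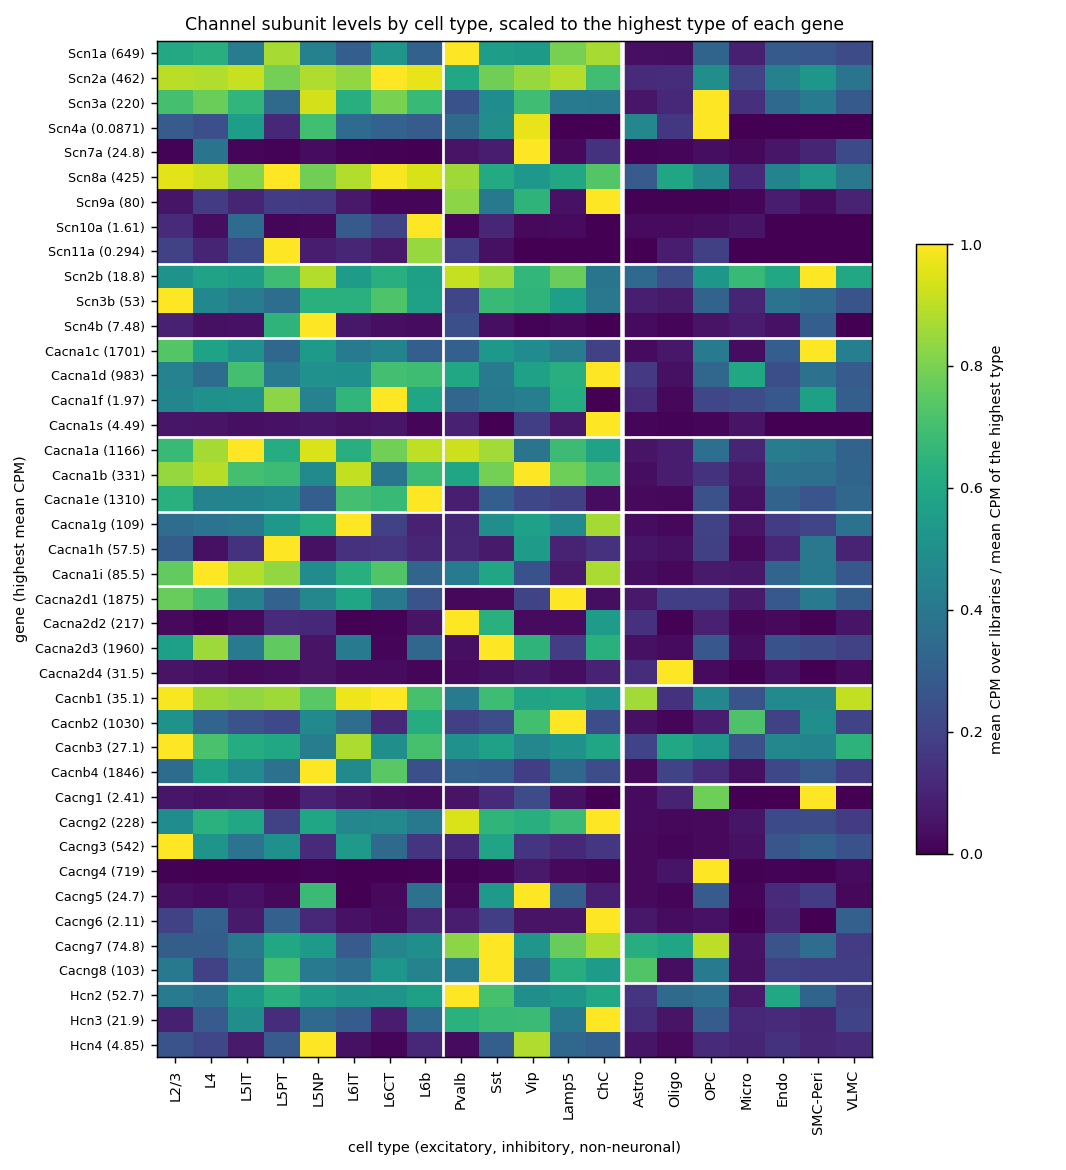
Mean level of members in the 20 cell types, each gene scaled to its own highest cell type, with genes ordered by family and cell types ordered as excitatory, inhibitory and non-neuronal. Brighter cells mark levels nearer the gene's maximum, the number beside each symbol is that maximum in CPM, and over all 44 members 36 had it in a neuron type. Neuron types were 13 of the 20 cell types, and the share over all genes was not computed.

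Among the sodium channel alpha subunits, Scn1a, whose loss in fast-spiking interneurons underlies Dravet syndrome, was highest in Pvalb interneurons (649 ± 43.9 CPM, SD, n = 8) and next in the subcortically projecting L5PT neurons (564 ± 127) and in ChC (564 ± 13.3, n = 3), with 193 ± 60.2 in L6IT. Scn2a, the subunit of immature and proximal axons of excitatory cells, was highest in L6CT (462 ± 28.6). Scn8a, found at the axon initial segment and nodes, stood at 425 ± 31.9 in L5PT and at 419.7 ± 44.4 in L6CT, which overlapped. Scn3a, the subunit prominent before birth, was highest in OPC (220.5 ± 19.2) with L5NP close to it (206 ± 7.85).

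The remaining alpha subunits are known mainly outside the cortex. Scn7a encodes a sodium sensor rather than a voltage-gated channel, and its level in Vip neurons over 8 libraries was 18.5 at the lowest, 25 at the median and 32.4 at the highest CPM, against 0 at the lowest, 0 at the median and 0.201 at the highest in L6b. This was the widest contrast within the alpha subunits, a ratio of means of 499. In L4, Scn7a varied between libraries from 0.977 to 27.9 CPM. Scn9a, known from pain-sensing neurons, was highest in ChC (80.0 ± 9.88 CPM, n = 3) and Pvalb (66.1 ± 10.1, n = 8). Scn10a, Scn11a and Scn4a did not exceed a mean of 1.61 ± 1.19 CPM in any cell type, and Scn11a and Scn4a were too low to be tested in any comparison.

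The sodium channel beta subunits are single-pass proteins that bind the alpha subunit and act in cell adhesion. Scn3b showed the widest range of the 4, with L2/3 at 38.8 at the lowest, 55.1 at the median and 64.5 at the highest CPM and Pvalb at 5.67 at the lowest, 10.4 at the median and 17.2 at the highest, a ratio of means of 4.75. Scn2b peaked in smooth muscle cells and pericytes (SMC-Peri, 18.8 ± 9.66, n = 6) and stood at 17.2 ± 2.88 in Pvalb, whose ranges overlapped, and Scn4b, the subunit linked to resurgent current, peaked in L5NP (7.48 ± 2.70).

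The L-type calcium channels signal from soma and dendrite to the nucleus. Cacna1c stood at 1013 at the lowest, 1231 at the median and 1509 at the highest CPM in L2/3, the highest of the neuron types, and at 275 at the lowest, 323 at the median and 405 at the highest in ChC (n = 3). It was higher still in SMC-Peri (1701 ± 424, n = 6), where this channel carries the calcium current of contraction. Neuron RNA was also present in SMC-Peri, with 7 neuron markers summing to 646 to 4953 CPM. In DR GR-KO male, the library with the lowest sum, Cacna1c stood at 2016 CPM, from only 19 nuclei and 51097 UMIs. The part of neuron RNA in the SMC-Peri level was not tested. Cacna1d was highest in ChC (983 ± 101, n = 3) and next in L5IT (691 ± 48.9), and of the non-neuronal types it was highest in microglia (590.0 ± 72.2, n = 5). Cacna1f, the photoreceptor subunit, and Cacna1s, the skeletal muscle subunit, stayed low, with highest means of 1.97 ± 0.728 CPM in L6CT and 4.49 ± 4.43 in ChC.

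Of the channels that trigger transmitter release, Cacna1a (P/Q type) was highest in L5IT (1166 ± 75.2 CPM), overlapping L5NP (1101 ± 68.9), and Cacna1b (N type) was highest in Vip (331 ± 30.2). Cacna1e (R type) had the widest contrast of this family, with 1149 at the lowest, 1322 at the median and 1481 at the highest CPM in L6b and 19 at the lowest, 22.2 at the median and 87.7 at the highest in ChC, a ratio of means of 30.5. The T-type subunits each led in a different excitatory type. Cacna1h stood at 34.1 at the lowest, 54.6 at the median and 79.8 at the highest CPM in L5PT and at 0.764 at the lowest, 2.06 at the median and 4.82 at the highest in L4, a ratio of 22.8. Cacna1i was highest in L4 (85.5 ± 6.96) with 5.93 ± 1.99 in Lamp5, and Cacna1g in L6IT (109 ± 30.3) with 9.86 ± 3.80 in L6b.

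Alpha2delta subunits carry calcium channels to the membrane, and 2 of them, from Cacna2d1 and Cacna2d2, bind gabapentin. Cacna2d2 stood at 193 at the lowest, 219 at the median and 243 at the highest CPM in Pvalb and at 0.500 at the lowest, 0.955 at the median and 1.22 at the highest in L4, a ratio of means of 235. Cacna2d1 ran the other way in Pvalb, with 41.8 ± 15 CPM there against 1875 ± 215 in Lamp5. Cacna2d3 was highest in Sst neurons (1959.7 ± 154) and at 32.9 ± 25.2 in L6CT, and Cacna2d4 was highest in Oligo (31.5 ± 9.17, with 4.13 ± 1.36 in astrocytes). The calcium channel beta subunits are cytoplasmic chaperones of the alpha1 subunit. Cacnb2 stood at 968 at the lowest, 996 at the median and 1146 at the highest CPM in Lamp5 and at 107 at the lowest, 116 at the median and 122 at the highest in L6CT, a ratio of 8.96, and was also high in microglia (742 ± 49.2, n = 5). Cacnb4 was highest in L5NP (1846 ± 176), Cacnb1 in L6CT (35.1 ± 6.27) and Cacnb3 in L2/3 (27.1 ± 3.26).

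Within the gamma family, Cacng2 encodes stargazin, the founding TARP, and its means in ChC (228 ± 54 CPM, n = 3) and Pvalb (216 ± 43.3) overlapped. Cacng3 was highest in L2/3 (542 ± 52.2) and at 59.6 ± 5.51 in Lamp5. Cacng4 was far higher in OPC (719 ± 103) than in any neuron type, with 48.2 ± 8.80 in Vip. Cacng5 stood at 21.5 at the lowest, 22.6 at the median and 36.1 at the highest CPM in Vip and at 0 at the lowest, 0.0700 at the median and 0.170 at the highest in L6IT, a ratio of means of 331. Cacng7 and Cacng8 both peaked in Sst (74.8 ± 4.68 and 103 ± 10.4). Cacng1, which encodes the gamma subunit of the muscle calcium channel, and its relative Cacng6 did not exceed a mean of 2.41 ± 3.74 in any type.

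Of the HCN subunits, Hcn2 was highest in Pvalb (52.7 ± 3.33 CPM). Hcn3 stood at 13.9 at the lowest, 25.3 at the median and 26.6 at the highest CPM in ChC (n = 3) and at 1.07 at the lowest, 1.42 at the median and 3.88 at the highest in L6CT, a ratio of 12.9. Hcn4, the pacemaker subunit of the heart, did not exceed 4.85 ± 0.385 CPM.

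Dark rearing was compared with normal rearing over all 8 libraries, with genotype as a term. Median UMI counts per nucleus were 15884 to 29223 in the NR libraries and 14861 to 20161 in the DR libraries. They were lowest in DR GR-KO (14928.5 and 14861) and highest in NR GR-KO (22827.5 and 29223). The part of depth per nucleus in this comparison was not tested. Several members were called in excitatory neurons, and Scn1a was lower in DR. The T-type subunits Cacna1h and Cacna1g, the R-type subunit Cacna1e, the L-type subunit Cacna1c, the beta subunit Scn3b and 5 TARP genes were higher. Their log2 fold changes were 0.26 to 1.59 where they were called. Of these TARP genes, Cacng7 was called in L2/3 alone and Cacng5 in L4 alone. Other members of these families were called lower, Cacna1i in L5IT, Cacna1f in L2/3 and L6CT and Cacng6 in L2/3. Fold changes are on the log2 scale (log2FC, positive where DR was higher). By edgeR's likelihood ratio test, with Benjamini-Hochberg adjustment over all genes tested in the cell type, 55 of 522 tested pairs of a member and a cell type were called (adjusted p under 0.05), against 5.24% of all gene and cell type pairs. Of these 55, 44 were higher in DR and 11 lower, while over all genes 2.62% were called higher and 2.63% lower. The quasi-likelihood test of edgeR also called 39 of them (3.3% of all pairs by that test) and DESeq2 also called 49 (5.07%). DR and NR libraries did not overlap in 44 of the 55 pairs. These pairs were called on the same libraries, so the count is a description and no further support. The share without overlap over all genes was not computed.

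Calls were unevenly spread over cell types. In excitatory neurons 49 of 293 tested pairs were called, against 7.65% of all genes there, and in inhibitory neurons 3 of 137, against 2.01%. Together the neuron types had 52 of 430 called (42 higher, 10 lower), where 5.93% of all pairs were called, 2.95% higher and 2.98% lower. Non-neuronal types had 3 of 92 (2.23%). The L2/3 neurons had 16 of 42 members called (13 higher, 3 lower; 15.9% of all genes called), L6CT 11 of 37 (9 higher, 2 lower; 12.5%) and L4 8 of 40 (7 higher, 1 lower; 9.6%). In L6IT the count was 6 of 35 (6.52%), in L5IT 4 of 36 (4.53%) and in L5PT 3 of 37 (3.79%). In L5NP, Sst and Vip edgeR called no member by either of its tests (0 of 106 pairs, where 2.33%, 1.0% and 1.02% of all genes were called), with 19 at an unadjusted p under 0.05 in the likelihood ratio test and 25 in the quasi-likelihood test, and DESeq2 called 2. The median log2 fold change of the members was 0.18 in L6CT, 0.12 in L2/3 and 0.10 in L4, where the median of all genes lay at −0.0073, −0.0047 and −0.0077. Of the 44 members, 25 were called in at least 1 cell type, 17 were tested and called in none, and 2 were not tested. The share of all genes called in at least 1 cell type was not computed, and the shares per pair above do not stand in for it.

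**Figure D2:**
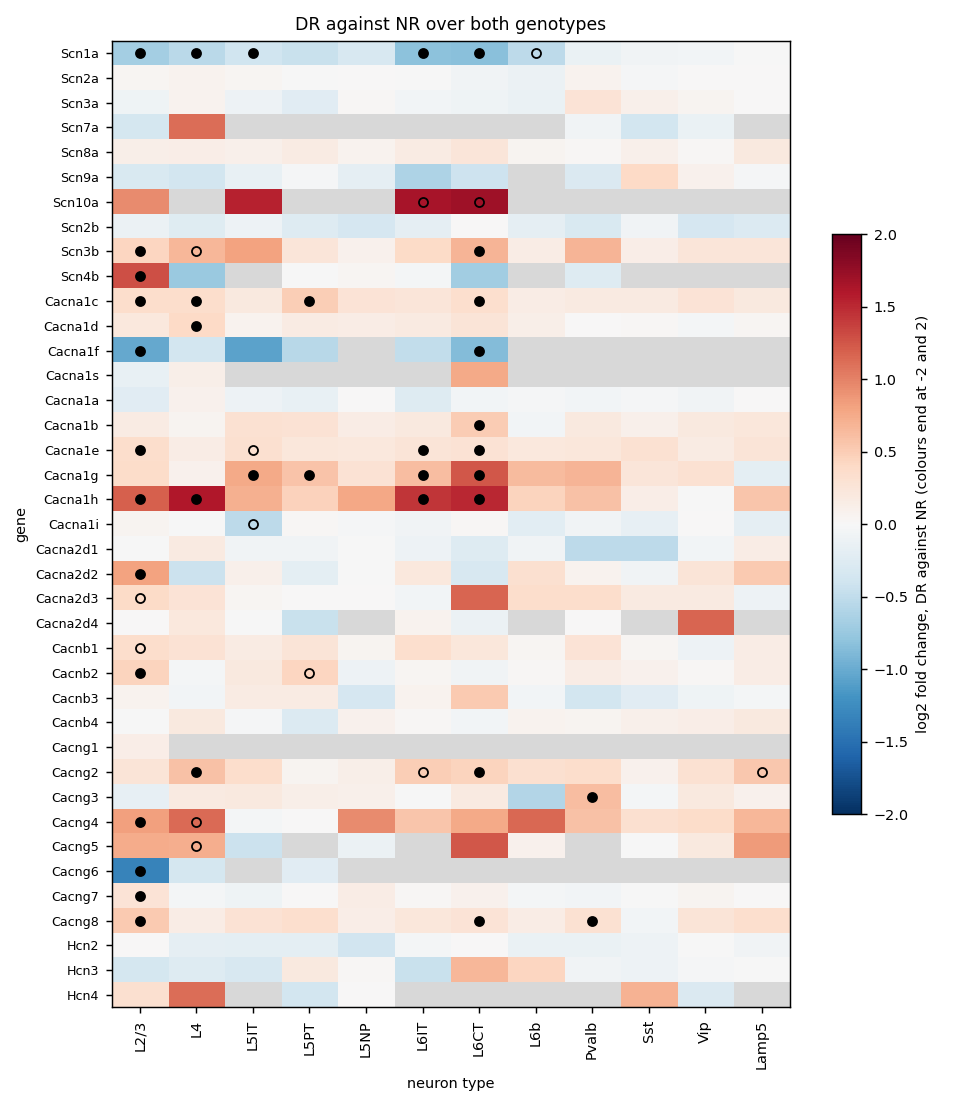
The log2 fold change of DR against NR over both genotypes for tested members (rows, by family) in neuron types (columns), with a circle on each called pair (edgeR likelihood ratio test, adjusted p under 0.05), filled where the quasi-likelihood test also called it, and grey where a gene was not tested. Over all members the calls lay mostly in excitatory types (49 of 293 pairs), where the Scn1a row is negative and the Cacna1h and Cacna1g rows are positive.

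Scn1a, on chromosome 2 of GRCm38 (66270778 to 66440840, minus strand), was the member called lower in the most types. In L6CT its levels were 514 and 423 CPM in NR GR-Con, 414 and 395 in NR GR-KO, 271 and 239 in DR GR-Con, and 206 and 254 in DR GR-KO, each pair giving the male and then the female library. All 4 DR libraries lay below all 4 NR libraries (log2FC -0.83 ± 0.13 SE, adjusted p = 9.94e-09). The L6IT levels were 270.3 and 236 CPM in NR GR-Con, 227 and 252 in NR GR-KO, 167 and 119 in DR GR-Con, and 125 and 148 in DR GR-KO, again without overlap (log2FC -0.82 ± 0.14 SE, adjusted p = 3.14e-06). In L2/3 they were 591 and 489 CPM in NR GR-Con, 436 and 421 in NR GR-KO, 336 and 282 in DR GR-Con, and 259.9 and 323 in DR GR-KO (log2FC -0.68 ± 0.14 SE, adjusted p = 4.11e-05), and here too no DR library reached an NR library. L5IT showed the same order at a smaller size, with 348 and 320.3 CPM in NR GR-Con, 284 and 298 in NR GR-KO, 239 and 242 in DR GR-Con, and 223 and 242 in DR GR-KO (log2FC -0.40 ± 0.10 SE, adjusted p = 0.00458). Scn1a was also called lower in L4 (-0.54 ± 0.12) and L6b (-0.53 ± 0.12). Its fold change was below 0 in 12 of 12 neuron types tested, though only -0.0148 in the type where it was nearest to 0. The DR libraries lay wholly below the NR libraries in 8 of the 12 types. These types come from the same animals and are not replicates, and the share without overlap over all genes was not computed. The quasi-likelihood test gave the adjusted p values 0.00593, 0.0191 and 0.0112 in L6CT, L6IT and L2/3.

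The start of the Scn1a gene is shown because Scn1a was called in more cell types than any other member in this comparison. The stretch covers the 250 bases before the RefSeq start, at chr2:66440838-66441087 of GRCm38.p6 on the minus strand, 5′ to 3′, with CG pairs in capitals:
Scn1a promoter: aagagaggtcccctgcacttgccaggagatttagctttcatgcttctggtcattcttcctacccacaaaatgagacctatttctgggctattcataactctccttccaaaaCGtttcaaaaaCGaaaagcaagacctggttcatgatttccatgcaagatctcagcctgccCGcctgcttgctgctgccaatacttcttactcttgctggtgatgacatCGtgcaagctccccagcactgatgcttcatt
It held 4 CG pairs and 46.8% G and C, against a median of 52.4% over 32851 mouse promoters of the RefSeq table. Motifs were searched on both strands as letters: the AP-1 motif TGANTCA (in 6.75% of all promoters), the cAMP response element TGACGTCA (1.55%) and the early growth response motif GCGTGGGCG (0.536%). None of these letter strings occurred in the Scn1a window. Of the 43 promoters listed for 32 of the 44 members, AP-1 letters occurred in 1, that of Cacng5, early growth response letters in 1, that of Scn7a, and the cAMP response element in 0.

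The other sodium channel genes were higher in DR where they were called in neuron types. Among alpha subunits, Scn10a was higher in L6IT and L6CT (1.65 and 1.69 on the log2 scale), at low levels, and the alpha subunits together had 9 calls in 75 neuronal pairs, 3 higher and 6 lower. Beta subunits had 4 calls in 43, all higher. For these and the family counts that follow, the share of all genes called in neuron types was 5.93% (2.95% higher, 2.98% lower). Scn3b in L6CT stood at 29.9 and 23.8 CPM in NR GR-Con, 41.7 and 23.3 in NR GR-KO, 38.9 and 54.9 in DR GR-Con, and 49.9 and 44.8 in DR GR-KO (log2FC 0.68 ± 0.19 SE, adjusted p = 0.00724; quasi-likelihood adjusted p = 0.0496). The NR GR-KO male library lay among the DR libraries. The pair lost its call without NR GR-Con female (0.59), where the number in parentheses is the log2 fold change of that fit. Scn3b was also called in L2/3 (0.43) and L4 (0.67), and Scn4b in L2/3 (1.28).

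**Figure D3:**
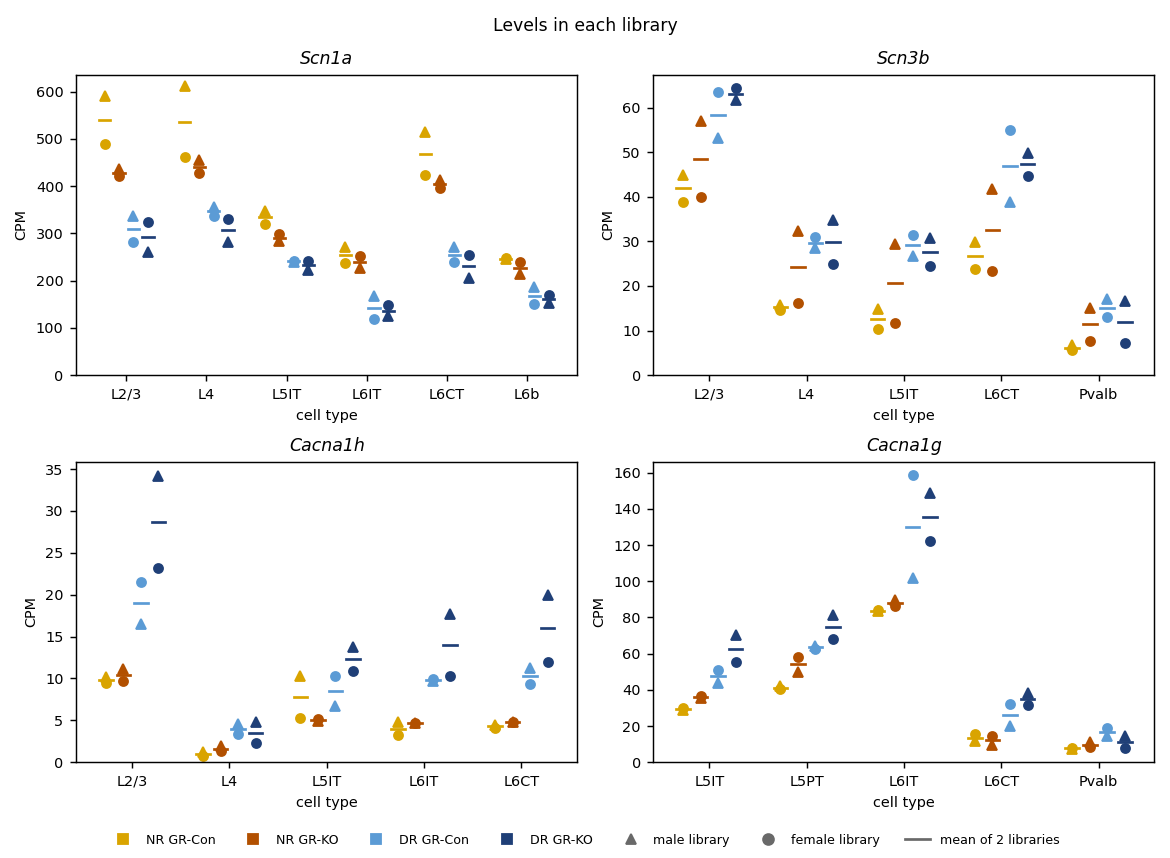
CPM of named members in single cell types in each of the 8 libraries, with points coloured by group and a bar at the group mean. In L6CT the Scn1a points of the DR libraries (206 to 271 CPM) lie below the NR points (395 to 514), and the Cacna1h and Cacna1g points of DR lie above those of NR.

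T-type calcium channel genes were called in several excitatory types. Cacna1h in L6CT stood at 4.46 and 4.14 CPM in NR GR-Con, 4.76 and 4.75 in NR GR-KO, 11.2 and 9.35 in DR GR-Con, and 20.0 and 12 in DR GR-KO. All DR libraries were above all NR libraries, and DR GR-KO male was highest (log2FC 1.51 ± 0.19 SE, adjusted p = 1.82e-12). The same order held in L6IT, with 4.80 and 3.23 CPM in NR GR-Con, 4.64 and 4.70 in NR GR-KO, 9.65 and 9.93 in DR GR-Con, and 17.7 and 10.3 in DR GR-KO (log2FC 1.43 ± 0.20 SE, adjusted p = 5.74e-10). In L2/3 the levels were 10.1 and 9.48 CPM in NR GR-Con, 11.2 and 9.71 in NR GR-KO, 16.5 and 21.5 in DR GR-Con, and 34.2 and 23.2 in DR GR-KO (log2FC 1.20 ± 0.18 SE, adjusted p = 4.33e-09). L4, the neuron type with the lowest mean of this gene, also moved, from at most 1.88 CPM in the NR libraries to at least 2.25 in the DR libraries (log2FC 1.59 ± 0.31 SE, adjusted p = 2.57e-05).

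Cacna1g, the T-type subunit of thalamic relay cells, stood in L6CT at 11.5 and 15.7 CPM in NR GR-Con, 9.60 and 14.4 in NR GR-KO, 19.8 and 32 in DR GR-Con, and 38.2 and 31.6 in DR GR-KO (log2FC 1.24 ± 0.22 SE, adjusted p = 2.31e-06). In L5IT it stood at 28.6 and 29.7 CPM in NR GR-Con, 35.5 and 36.4 in NR GR-KO, 43.8 and 50.9 in DR GR-Con, and 70.1 and 55.2 in DR GR-KO (log2FC 0.75 ± 0.11 SE, adjusted p = 5.88e-08). No DR library overlapped an NR library in either type. It was also called higher in L5PT (0.56 ± 0.10) and L6IT (0.62 ± 0.13). The third T-type gene, Cacna1i, was called once, lower in L5IT (-0.53 ± 0.14), so the T-type genes together had 9 calls in 36 neuronal pairs, 8 higher and 1 lower (all genes 5.93%, with 2.95% higher and 2.98% lower).

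High-voltage-activated alpha1 subunits mostly rose where they were called. In L5PT, Cacna1c stood at 469.7 and 467 CPM in NR GR-Con, 471 and 477 in NR GR-KO, 641 and 647 in DR GR-Con, and 722 and 637 in DR GR-KO (log2FC 0.49 ± 0.10 SE, adjusted p = 2.13e-04), with all DR libraries above all NR libraries. It was also called higher in L2/3 (0.36), L4 (0.35) and L6CT (0.34). Cacna1e in L2/3 stood at 697 and 711 CPM in NR GR-Con, 800.1 and 714 in NR GR-KO, 982 and 899.9 in DR GR-Con, and 1019.9 and 846 in DR GR-KO (log2FC 0.36 ± 0.10 SE, adjusted p = 0.00714). Its DR libraries lay above its NR libraries, and the pair lost its call without NR GR-Con male (0.34), NR GR-KO female (0.34) or DR GR-KO male (0.31). L5IT, L6IT and L6CT were called higher as well (0.33, 0.26 and 0.30). The photoreceptor gene Cacna1f fell in L2/3, from 1.46 and 1.24 CPM in NR GR-Con, 1.02 and 1.15 in NR GR-KO, 0.648 and 0.603 in DR GR-Con, and 0.569 and 0.582 in DR GR-KO (log2FC -1.02 ± 0.19 SE, adjusted p = 6.00e-06), and in L6CT (-0.87). Cacna1d was higher in L4 (0.40) and Oligo (0.42), Cacna1b was higher in L6CT (0.51), and Cacna1a was called in no type. Against the same 5.93% of all genes, the neuronal totals were 7 calls in 33 pairs for the L type (5 higher, 2 lower) and 5 in 36 for the P/Q, N and R types (5 higher).

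Auxiliary calcium channel subunits were called in L2/3 and L5PT. Cacna2d2 in L2/3 stood at 3.76 and 3.67 CPM in NR GR-Con, 3.73 and 3.83 in NR GR-KO, 5.74 and 7.82 in DR GR-Con, and 6.70 and 6.01 in DR GR-KO (log2FC 0.80 ± 0.14 SE, adjusted p = 4.03e-07), and every DR library was above every NR library. The alpha2delta genes had 2 calls in 44 neuronal pairs (all genes 5.93%), the other being Cacna2d3 in L2/3 (0.39). The beta subunits had 3 in 48, also near that share, Cacnb1 in L2/3 (0.36) and Cacnb2 in L2/3 (0.45) and L5PT (0.43).

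The gamma and TARP genes had 13 calls in 73 neuronal pairs, 12 higher and 1 lower, where 5.93% of all genes were called (2.95% higher, 2.98% lower). Cacng3 in Pvalb stood at 49.4 and 40.5 CPM in NR GR-Con, 54.8 and 54 in NR GR-KO, 61.5 and 74.6 in DR GR-Con, and 91.2 and 74.4 in DR GR-KO (log2FC 0.61 ± 0.10 SE, adjusted p = 2.22e-06). Cacng8 in L2/3 stood at 32.4 and 30.8 CPM in NR GR-Con, 40.9 and 32.3 in NR GR-KO, 42.1 and 53.3 in DR GR-Con, and 54.8 and 47 in DR GR-KO (log2FC 0.53 ± 0.12 SE, adjusted p = 1.45e-04). In both pairs the DR libraries were above the NR libraries. Cacng4 in L2/3, at a low level, stood at 2.51 and 2.55 CPM in NR GR-Con, 4.28 and 3.67 in NR GR-KO, 5.88 and 3.62 in DR GR-Con, and 8.12 and 5.24 in DR GR-KO (log2FC 0.82 ± 0.21 SE, adjusted p = 0.00147), with DR GR-Con female below NR GR-KO. Cacng2 in L4 stood at 121 and 107 CPM in NR GR-Con, 133 and 106 in NR GR-KO, 133 and 149 in DR GR-Con, and 211 and 202 in DR GR-KO (log2FC 0.59 ± 0.14 SE, adjusted p = 8.68e-04). Its DR GR-Con male library was level with the highest NR library, and its 2 highest libraries were both DR GR-KO. Cacng7 (L2/3) and Cacng5 (L4) were also called higher, and Cacng6 (L2/3) lower. Of the 42 HCN pairs in neuron types, 0 were called by edgeR's likelihood ratio and quasi-likelihood tests, with 8 and 10 at an unadjusted p under 0.05, and 2 by DESeq2, against 5.93% of all genes by the first test, and 12 of the 42 had a fold change above 0.

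In GR-Con animals alone, which compares 2 DR with 2 NR libraries, 34 of 514 pairs were called (23 higher, 11 lower), against 2.25% of all pairs (1.41% higher, 0.84% lower). All 34 lay in neuron types (34 of 423, background 2.69%). In non-neuronal types the likelihood ratio test called 0 of 91, where 0.313% of all pairs were called, with 11 at an unadjusted p under 0.05, and neither of the other tests called any. Of the 34, the quasi-likelihood test kept 10 (0.495% of all pairs by that test) and DESeq2 28 (1.52%). This comparison shares its libraries with the one over both genotypes and is not independent of it.

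The beta subunit Scn3b was called in 4 neuron types of GR-Con animals. In L4 it stood at 15.8 and 14.5 CPM in NR GR-Con and 28.6 and 30.9 in DR GR-Con (log2FC 0.98 ± 0.14 SE, adjusted p = 4.27e-09; quasi-likelihood adjusted p = 0.0523). In L5IT the levels were 14.8 and 10.4 CPM in NR GR-Con and 26.8 and 31.5 in DR GR-Con (log2FC 1.21 ± 0.20 SE, adjusted p = 1.43e-07). Pvalb, the neuron type with the lowest mean of this gene, had 6.66 and 5.67 CPM in NR GR-Con and 17.2 and 13 in DR GR-Con (log2FC 1.29 ± 0.23 SE, adjusted p = 1.21e-05). In each of the 3 types both DR libraries exceeded both NR libraries. In GR-KO animals Pvalb Scn3b stood at 15.2 and 7.72 CPM in NR GR-KO and 16.7 and 7.21 in DR GR-KO, which overlapped.

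T-type genes moved in both directions in GR-Con. Cacna1h stood in L4 at 1.18 and 0.764 CPM in NR GR-Con and 4.51 and 3.40 in DR GR-Con (log2FC 2.03 ± 0.32 SE, adjusted p = 9.42e-08; quasi-likelihood adjusted p = 0.0995) and in L2/3 at 10.1 and 9.48 CPM in NR GR-Con and 16.5 and 21.5 in DR GR-Con (log2FC 0.90 ± 0.18 SE, adjusted p = 4.60e-05). Cacna1g in Pvalb stood at 7.54 and 7.84 CPM in NR GR-Con and 14.3 and 19.1 in DR GR-Con (log2FC 1.12 ± 0.21 SE, adjusted p = 3.94e-05). Both genes were higher in DR, whereas Cacna1i in L5IT was lower, at 106 and 103 CPM in NR GR-Con and 60.6 and 61.9 in DR GR-Con (log2FC -0.77 ± 0.13 SE, adjusted p = 1.76e-07). Cacna1g was called higher in L5IT as well, at 28.6 and 29.7 CPM in NR GR-Con and 43.8 and 50.9 in DR GR-Con (log2FC 0.70 ± 0.15 SE, adjusted p = 2.21e-04). In L5PT it stood at 42.2 and 40.3 CPM in NR GR-Con and 64.1 and 62.7 in DR GR-Con (log2FC 0.61 ± 0.14 SE, adjusted p = 8.92e-04). The L5IT call was lost without NR GR-Con male (0.66) and the L5PT call without NR GR-Con male (0.63) or NR GR-Con female (0.59).

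Sodium channel alpha genes in GR-Con gave Scn1a lower in 6 types and Scn7a higher in 2. Scn1a in L2/3 stood at 591 and 489 CPM in NR GR-Con and 336 and 282 in DR GR-Con (log2FC -0.85 ± 0.19 SE, adjusted p = 2.11e-04) and in L5IT at 348 and 320.3 CPM in NR GR-Con and 239 and 242 in DR GR-Con (log2FC -0.47 ± 0.14 SE, adjusted p = 0.0149). In each of these pairs the 2 groups did not overlap. The Scn1a call was lost in L2/3 without NR GR-Con male (-0.73) and in L5IT whichever of the 4 libraries was left out (log2FC -0.52 to -0.42). Scn7a in L4 stood at 2.29 and 2.42 CPM in NR GR-Con and 27.9 and 9.56 in DR GR-Con (log2FC 3.01 ± 0.52 SE, adjusted p = 1.95e-06), with DR male well above DR female, and the quasi-likelihood adjusted p was 0.135.

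In GR-KO animals, 64 of 563 pairs were called (29 higher, 35 lower), against 3.66% of all pairs (1.69% higher, 1.96% lower). Depth moved with this contrast, with median UMI counts per nucleus of 22827.5 and 29223 in NR GR-KO and 14928.5 and 14861 in DR GR-KO, and the part of depth per nucleus was not tested. The quasi-likelihood test kept 26 of them (0.857% of all pairs by that test) and DESeq2 46 (2.61%). The split by direction depended on the test. In all, the quasi-likelihood test called 27 pairs, 5 higher and 22 lower, and DESeq2 called 64, 40 higher and 24 lower. In neuron types 35 of 417 were called, 28 higher and 7 lower (background 3.4%, with 1.75% higher and 1.66% lower). Of these 35 the quasi-likelihood test kept only 5 and DESeq2 29. Non-neuronal types had 29 of 146 called, 1 higher and 28 lower (background 4.42%, with 1.54% higher and 2.88% lower). Of these 29 the quasi-likelihood test kept 21 and DESeq2 17.

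In neuron types of GR-KO animals the T-type genes Cacna1h and Cacna1g and the TARP gene Cacng2 were called higher. Cacna1h in L6CT stood at 4.76 and 4.75 CPM in NR GR-KO and 20.0 and 12 in DR GR-KO (log2FC 1.76 ± 0.27 SE, adjusted p = 2.86e-08; quasi-likelihood adjusted p = 0.0548). Cacna1g in L6CT stood at 9.60 and 14.4 CPM in NR GR-KO and 38.2 and 31.6 in DR GR-KO (log2FC 1.55 ± 0.24 SE, adjusted p = 1.82e-08; quasi-likelihood adjusted p = 0.0534). Both DR libraries were above both NR libraries for the 2 genes. Cacng2 in Lamp5 stood at 133 and 125 CPM in NR GR-KO and 205 and 264 in DR GR-KO (log2FC 0.92 ± 0.17 SE, adjusted p = 3.68e-05), and Cacng2 was called higher in 7 neuron types. Cacng4 was called higher in L2/3, Sst and Vip and also in Oligo, where it stood at 14.5 and 32.8 CPM in NR GR-KO and 61.6 and 55.3 in DR GR-KO (log2FC 1.33 ± 0.31 SE, adjusted p = 0.00214; quasi-likelihood adjusted p = 0.0818), with the NR female library nearer to the DR libraries than the NR male library was. That Oligo call was lost without DR GR-KO male (1.27) or DR GR-KO female (1.39).

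Of the 35 lower calls, 16 came from vascular leptomeningeal cells (VLMC), fibroblast-like cells of the brain surface that are not electrically excitable, in which 16 of 18 tested members were lower in DR GR-KO and 0 higher (19.9% of all genes tested in VLMC were called). Their channel RNA moved with neuron marker RNA. Summed over 7 neuron markers such as Snap25 and Slc17a7, that level in VLMC was 3213 to 4303 CPM in NR GR-KO and 3308 to 4205 in NR GR-Con, but 492 to 955 in DR GR-KO and 1059 in DR GR-Con male. In the 4 GR-KO libraries all 7 markers were above 0. DR GR-Con female held 3 VLMC nuclei, so the comparison could not be run in GR-Con. The part of this neuron RNA in the VLMC result was not tested.

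**Figure D4:**
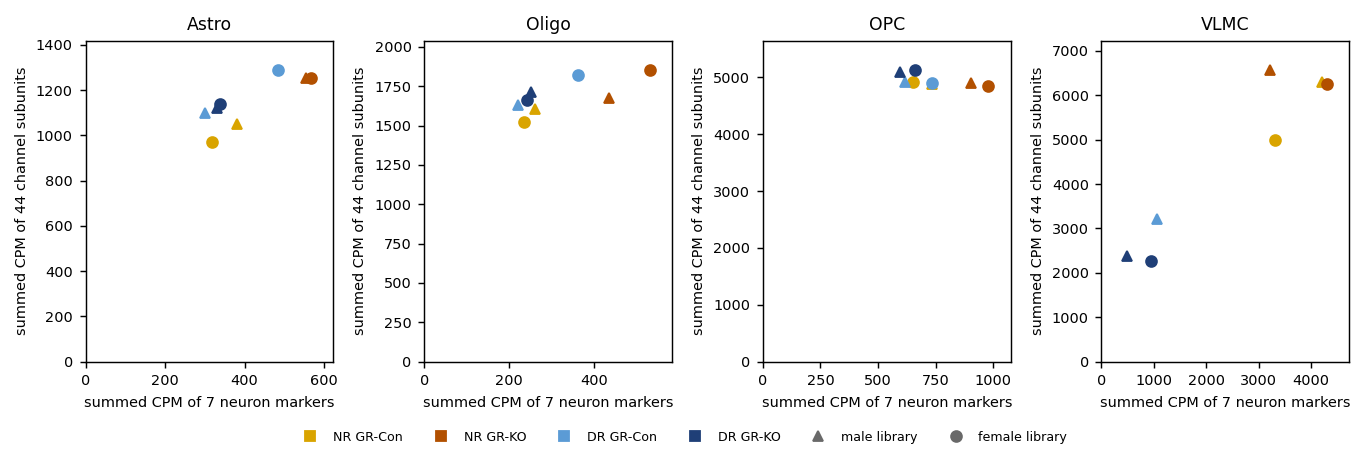
Summed CPM of 7 neuron markers against the summed CPM of the members in non-neuronal cell types, with 1 point for each library. In VLMC the NR libraries (3213 to 4303 CPM of neuron markers) lie apart from the DR libraries (492 to 1059), and in astrocytes the 2 NR GR-KO libraries (556 to 567) lie above the NR GR-Con libraries (318 to 382).

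The VLMC values spanned several families. The TARP gene Cacng3 stood at 224 and 220.2 CPM in NR GR-KO and 22.5 and 20.0 in DR GR-KO (log2FC -3.62 ± 0.41 SE, adjusted p = 1.82e-16), and Cacng2 at 66.4 and 66.9 CPM in NR GR-KO and 22.5 and 6.67 in DR GR-KO (-2.53 ± 0.50). The alpha2delta genes Cacna2d3 and Cacna2d1 stood at 512 and 802 CPM in NR GR-KO and 72.2 and 56.7 in DR GR-KO (-3.62 ± 0.44) and at 866 and 774 CPM in NR GR-KO and 253 and 204 in DR GR-KO (-2.10 ± 0.33). In all of these both DR libraries were below both NR libraries. Release-type Cacna1a stood at 612 and 611 CPM in NR GR-KO and 139.8 and 110.1 in DR GR-KO (-2.55 ± 0.34) and Cacna1b at 163 and 171 CPM in NR GR-KO and 27.1 and 33.4 in DR GR-KO (-2.69 ± 0.39). The beta subunit gene Cacnb2 stood at 335 and 231 CPM in NR GR-KO and 36.1 and 56.7 in DR GR-KO (-2.79 ± 0.40). These 3 showed the same separation. Sodium channel genes did so too: Scn1a stood at 160.5 and 286 CPM in NR GR-KO and 31.6 and 36.7 in DR GR-KO (-2.96 ± 0.47), Scn8a at 235 and 258 CPM in NR GR-KO and 63.1 and 86.8 in DR GR-KO (-1.94 ± 0.33) and Scn3a at 105 and 92 CPM in NR GR-KO and 18 and 30.0 in DR GR-KO (-2.21 ± 0.44). Values in parentheses with no adjusted p are log2 fold changes with their SE.

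In other non-neuronal types the calls in DR GR-KO were 5 of 31 in astrocytes, all lower (2.85% of all genes tested there), 6 of 30 in Oligo, 5 lower and 1 higher (3.79%), and 2 of 31 in OPC, both lower (2.07%). The neuron markers summed to 556 to 567 CPM in NR GR-KO and 331 to 339 in DR GR-KO in astrocytes, to 436 to 531 and 243 to 251 in Oligo, and to 902 to 978 and 597 to 661 in OPC. They were lower in both DR libraries of each type, and their part in these calls was not tested.

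Astrocyte GR was addressed by comparing GR-KO with GR-Con in normally reared animals. Positive log2FC now means higher in GR-KO. In NR 21 of 546 pairs passed the test, 17 of them higher and 4 lower, against 0.804% of all pairs (0.491% higher, 0.313% lower). The quasi-likelihood test kept 10 of them (0.361% of all pairs by that test) and DESeq2 8 (0.433%). Only 3 of 413 pairs in neuron types were called (background 0.298%), while non-neuronal types had 18 of 133 (2.42%), 15 of them in astrocytes. In astrocytes, the cells the promoter of Cre is used for, 13 of 31 tested members rose and 2 fell (7.11% of all genes tested there). In the same astrocytes the neuron markers summed to 556 to 567 CPM in NR GR-KO and to 318 to 382 in NR GR-Con, and to 300 to 485 in the 4 DR libraries. The summed member level was 1253 to 1254 CPM in NR GR-KO and 972 to 1052 in NR GR-Con. Depth moved with this contrast too. Astrocytes had medians of 6267 and 5586.5 UMIs per nucleus in NR GR-Con and 8662 and 12123.5 in NR GR-KO. The parts of neuron RNA and of depth per nucleus in these calls were not tested.

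Among the astrocyte calls, the auxiliary genes Cacnb4 and Cacnb2 stood at 36.4 and 33.9 CPM in NR GR-Con and 59.3 and 64.5 in NR GR-KO (log2FC 0.75 ± 0.14 SE, adjusted p = 7.41e-06) and at 28.1 and 29.1 CPM in NR GR-Con and 45 and 57.9 in NR GR-KO (log2FC 0.79 ± 0.18 SE, adjusted p = 3.65e-04). Cacna2d1 stood at 99.4 and 92.6 CPM in NR GR-Con and 153 and 136 in NR GR-KO (log2FC 0.52 ± 0.14 SE, adjusted p = 0.00518). For these 3 genes the GR-KO libraries lay above the GR-Con libraries. Pore-forming Cacna1e stood at 24 and 19.4 CPM in NR GR-Con and 39.2 and 40.7 in NR GR-KO (log2FC 0.82 ± 0.17 SE, adjusted p = 5.83e-05) and Cacna1b at 9.04 and 9.41 CPM in NR GR-Con and 15.1 and 15.5 in NR GR-KO (log2FC 0.67 ± 0.19 SE, adjusted p = 0.0097). The sodium channel genes Scn1a and Scn8a stood at 28.1 and 24.9 CPM in NR GR-Con and 39.5 and 41.3 in NR GR-KO (log2FC 0.54 ± 0.16 SE, adjusted p = 0.0102) and at 103 and 95.7 CPM in NR GR-Con and 144 and 132 in NR GR-KO (log2FC 0.41 ± 0.14 SE, adjusted p = 0.0472). All 4 were higher without overlap, but Cacna1b lost its call whichever of the 4 libraries was left out (log2FC 0.62 to 0.71), and so did Scn8a whichever of the 4 libraries was left out (log2FC 0.35 to 0.45). Calls were also lost for Scn1a without NR GR-Con male (0.62), NR GR-Con female (0.47) or NR GR-KO female (0.49), for Cacna2d1 without NR GR-Con male (0.56), NR GR-Con female (0.48) or NR GR-KO male (0.44) and for Cacnb2 without NR GR-KO female (0.57).

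The TARP genes of astrocytes moved in both directions. Cacng3 rose, at 11.2 and 10.3 CPM in NR GR-Con and 19.7 and 18.7 in NR GR-KO (log2FC 0.77 ± 0.18 SE, adjusted p = 6.99e-04), whereas Cacng4 fell, at 28.4 and 25.2 CPM in NR GR-Con and 15.5 and 19.2 in NR GR-KO (log2FC -0.68 ± 0.19 SE, adjusted p = 0.00687), and Cacng8 was lower as well (-0.42). Cacng3 lost its call without NR GR-Con female (0.72) and Cacng4 without NR GR-Con male (-0.61) or NR GR-KO male (-0.53). Oligo had Cacna1e and Cacng3 higher, and its neuron markers summed to 436 to 531 CPM in NR GR-KO against 235 to 260 in NR GR-Con. The 3 neuronal calls were Cacna2d2 and Scn4b, both lower in L5PT (-0.63 and -1.15), and Scn7a in L4, at 2.29 and 2.42 CPM in NR GR-Con and 15.6 and 6.24 in NR GR-KO (log2FC 2.21 ± 0.45 SE, adjusted p = 0.00124), for which the quasi-likelihood adjusted p was 0.898 and the call was lost without NR GR-Con male (2.17) or NR GR-Con female (2.25). NR GR-KO female held 59 L5PT nuclei.

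In dark-reared animals, GR-KO against GR-Con gave 10 calls in 515 pairs (7 higher, 3 lower), against 0.513% of all pairs (0.319% higher, 0.194% lower), all in neuron types (10 of 424, background 0.541%). Non-neuronal types, with a background of 0.384%, had 0 of 91 by each of the 3 tests, with 4 at an unadjusted p under 0.05 in the likelihood ratio test. DESeq2 kept 8 of the 10 (0.383% of all pairs by that test). The quasi-likelihood test called 0 of 515 pairs, with 66 at an unadjusted p under 0.05, and 0.00431% of all pairs. Of the 10 calls, 5 were of Cacng2. The 3 lower calls were Cacna2d1 and Cacna2d3 in Pvalb (-0.86 and -0.71) and Scn7a in L2/3 (-2.42).

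Cacng2, the stargazin gene on chromosome 15 (77991748 to 78120028, minus strand), was called higher in 5 neuron types of DR GR-KO. In L2/3 it stood at 88.7 and 101 CPM in DR GR-Con and 153 and 145 in DR GR-KO (log2FC 0.71 ± 0.15 SE, adjusted p = 0.0019; quasi-likelihood adjusted p = 0.407). In L5IT the levels were 113 and 131 CPM in DR GR-Con and 175 and 202 in DR GR-KO (log2FC 0.65 ± 0.15 SE, adjusted p = 0.00667) and in Lamp5 144 and 123 CPM in DR GR-Con and 205 and 264 in DR GR-KO (log2FC 0.83 ± 0.18 SE, adjusted p = 0.0041). GR-KO libraries exceeded GR-Con libraries in each. L4 had 133 and 149 CPM in DR GR-Con and 211 and 202 in DR GR-KO (log2FC 0.59 ± 0.14 SE, adjusted p = 0.00387), and Pvalb was called as well (0.50). The call was lost in L2/3 without DR GR-KO male (0.69) or DR GR-KO female (0.74), in L5IT without DR GR-Con male (0.57) or DR GR-KO female (0.52), in Lamp5 without DR GR-Con female (0.71) or DR GR-KO female (0.63) and in L4 without DR GR-KO male (0.57) or DR GR-KO female (0.60). Both DR GR-KO libraries were above all 6 others in 10 of 12 neuron types, the exceptions being L5NP and L5PT. The 12 types come from the same 2 animals of the group and are not replicates. Other members did so in fewer types, Scn8a in 6 and Cacna1g and Cacna1h in 5 each. The share over all genes was not computed. The DR GR-KO libraries also had the lowest median depth, 14861 and 14928.5 UMIs per nucleus. In L2/3 itself their medians were 19750 and 18144, against 19494 to 37731 in the other 6 libraries. The fold change was 0.72 with the L2/3 UMI totals thinned to that of the lowest library, which does not equalise the depth per nucleus, whose part was not tested.

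**Figure D5:**
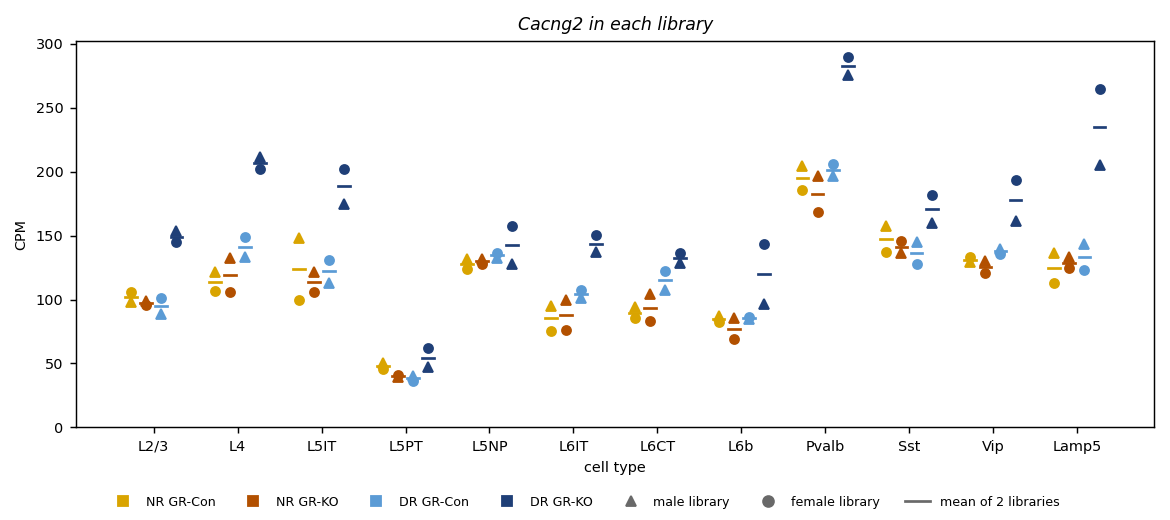
CPM of Cacng2 in each library of each neuron type, coloured by group. In L2/3 the 2 DR GR-KO libraries (153 and 145 CPM) stand above the other 6 (88.7 to 106). The DR GR-KO libraries are the highest in 10 of 12 neuron types of the same animals.

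Over both rearings, GR-KO against GR-Con gave 5 calls in 522 pairs, 3 higher and 2 lower (0.4% of all pairs, with 0.176% higher and 0.223% lower), all in astrocytes, where 4.79% of all genes were called (1.79% over the non-neuronal types). The quasi-likelihood test kept 2 (0.196% of all pairs by that test) and DESeq2 3 (0.321%). In neuron types the count was 0 of 430 (background 0.0818%) by each of the 3 tests, with 25, 31 and 26 at an unadjusted p under 0.05 by the likelihood ratio test, the quasi-likelihood test and DESeq2. Cacna1a stood at 60.9 and 53.8 CPM in NR GR-Con, 78.4 and 82 in NR GR-KO, 45.9 and 53.2 in DR GR-Con, and 61.9 and 58.9 in DR GR-KO (log2FC 0.36 ± 0.11 SE, adjusted p = 0.0205). Cacng8 was lower, at 96.8 and 86.3 CPM in NR GR-Con, 69.3 and 73.4 in NR GR-KO, 68.9 and 84.2 in DR GR-Con, and 61.7 and 60.4 in DR GR-KO (log2FC -0.37 ± 0.11 SE, adjusted p = 0.0261). DR GR-KO female overlapped NR GR-Con male for Cacna1a, and NR GR-KO overlapped DR GR-Con male for Cacng8.

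Scn8a stood at 103 and 95.7 CPM in NR GR-Con, 144 and 132 in NR GR-KO, 122 and 86 in DR GR-Con, and 142 and 146 in DR GR-KO (log2FC 0.44 ± 0.13 SE, adjusted p = 0.0216), with every GR-KO library above every GR-Con library. Cacng3 stood at 11.2 and 10.3 CPM in NR GR-Con, 19.7 and 18.7 in NR GR-KO, 9.63 and 12.8 in DR GR-Con, and 12.3 and 14.9 in DR GR-KO (log2FC 0.55 ± 0.16 SE, adjusted p = 0.0206), and its groups overlapped. The fifth call was Cacna2d4, lower at 5.62 and 4.18 CPM in NR GR-Con, 3.32 and 3.37 in NR GR-KO, 6.07 and 5.00 in DR GR-Con, and 2.01 and 3.48 in DR GR-KO (log2FC -0.78 ± 0.24 SE, adjusted p = 0.0282), without overlap. Each of the 5 rested on most of the libraries. Cacna1a lost its call when any library but DR GR-Con female was left out (log2FC 0.32 to 0.39), Cacng3 when any library but DR GR-Con female or DR GR-KO male was left out (log2FC 0.48 to 0.54), Scn8a when any library but DR GR-Con male or DR GR-Con female was left out (log2FC 0.42 to 0.47), Cacng8 when any library but DR GR-Con male or DR GR-Con female was left out (log2FC -0.38 to -0.32) and Cacna2d4 when any library but NR GR-Con female or DR GR-Con female was left out (log2FC -0.87 to -0.63). Neuron markers in astrocytes summed to 331 to 567 CPM in the GR-KO libraries and 300 to 485 in the GR-Con libraries, and their part in these calls was not tested.

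Whether the effect of GR-KO differed between rearing conditions was tested by the interaction of genotype and rearing, the GR-KO effect in NR minus that in DR. Of 522 pairs 2 were called, 1 in each direction (0.181% of all pairs, with 0.139% higher and 0.0423% lower). The count was 12 with a term for sex and 0 to 22 when 1 library was left out (0 without NR GR-Con male or DR GR-KO female, 22 without DR GR-Con male). Both were in L2/3, where 0.186% of all genes were called, against 0.149% over neuron types, and non-neuronal types (0.321%) had none of 92, with 19 at an unadjusted p under 0.05. DESeq2 called 1 of the 2, that of Cacng2, and gave no adjusted p for the other. It called 3 pairs in all, each lower (0.135% of all pairs by that test), among them Cacng2 in Pvalb (log2FC -0.62, DESeq2 adjusted p = 0.0147). The quasi-likelihood test called 0 of 522, with 86 at an unadjusted p under 0.05 and 0.00276% of all pairs called. Cacng2 in L2/3 stood at 98.3 and 106 CPM in NR GR-Con, 98.9 and 95.8 in NR GR-KO, 88.7 and 101 in DR GR-Con, and 153 and 145 in DR GR-KO (log2FC -0.81 ± 0.19 SE, adjusted p = 0.0152; quasi-likelihood adjusted p = 0.264). Its GR-KO libraries were level with GR-Con in NR and above them in DR. Scn7a in L2/3 stood at 0.124 and 0.0981 CPM in NR GR-Con, 0.523 and 0.248 in NR GR-KO, 0.392 and 0.332 in DR GR-Con, and 0.114 and 0.0171 in DR GR-KO (log2FC 4.14 ± 0.88 SE, adjusted p = 0.00295; quasi-likelihood adjusted p = 0.465), that is, higher in GR-KO in NR and lower in GR-KO in DR, at levels below 1 CPM in every library. The likelihood ratio test had 70 of the 522 pairs at an unadjusted p under 0.05, and a call in 1 rearing condition and not in the other does not by itself show that the effects differ, nor that they are alike.

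Other genes that act with these channels were followed as a list of 27: FGF homologous factors and axon initial segment scaffolds of the sodium channel, the sodium leak channel complex, the HCN partner Pex5l, and scaffolds, calcium sensors and inhibitors of calcium channels. Under dark rearing over both genotypes 29 of 352 tested pairs were called, 11 higher and 18 lower (5.24% of all pairs). The quasi-likelihood test called 15, 7 higher and 8 lower (3.3% of all pairs by that test). DESeq2 called 37, 17 higher and 20 lower (5.07%). Rimbp2, which ties calcium channels to the release site, was higher in 5 excitatory types. The calmodulin gene Calm2 was lower in 5 types. By the quasi-likelihood test 3 of 350 were called in GR-Con animals (0.495%) and 27 of 414 in GR-KO animals (0.857%). The likelihood ratio test called 11 of 350 in GR-Con animals (7 higher and 4 lower, 2.25%) and 37 of 414 in GR-KO animals (7 higher and 30 lower, 3.66%). Of those 37, 28 lay in non-neuronal types (28 of 129, background 4.42%), and 16 of them, all lower, were in VLMC (16 of 21 tested, where 19.9% of all genes were called), the type in which the neuron markers stood at 3213 to 4303 CPM in NR GR-KO and 492 to 955 in DR GR-KO. The part of this neuron RNA was not tested.

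For astrocyte GR, the list had 10 of 393 pairs called in NR (9 higher, 1 lower; 0.804%). All 10 were in astrocytes (10 of 23 tested, where 7.11% of all genes were called), whose neuron markers summed to 318 to 382 CPM in NR GR-Con and 556 to 567 in NR GR-KO, and their part was not tested. The list had 1 of 350 called in DR (0.513%), the sodium channel modulator Fgf13, lower in L4. Over both rearings 2 of 352 were called (0.4%), Fgf13 lower and the initial segment spectrin gene Sptbn4 higher, both in astrocytes (4.79% of all genes called there). The interaction was called for 2 of 352 (0.181%), the leak channel gene Fam155a and Pex5l, in astrocytes (0.386%). The quasi-likelihood test called 0 of 350 in DR (0.00431% of all pairs by that test) and 0 of 352 for the interaction (0.00276%). In both comparisons 38 pairs of the list had an unadjusted p under 0.05 by that test. DESeq2 called 1 in DR (0.383%) and 4 for the interaction (0.135%).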

How the data were processed

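Single-nucleus RNA was measured in 8 libraries of P21 mouse V1, 2 per group. The authors deposited a matrix of UMI counts per nucleus with a table naming each nucleus' library and cell type. Per the labels, reads were processed with Cell Ranger 8.0.1 and Seurat 5.3.0 on mm10, and per the study's methods a custom annotation was used, doublets were removed with DoubletFinder, nuclei were clustered and clusters without markers dropped. No further nuclei were removed here. Library names gave group and sex but no replicate number, so they were mapped to groups only.

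Counts were summed per library and cell type. Only cell types with 10 or more nuclei in all libraries compared were fitted. Genes were filtered with filterByExpr, scaled with TMM and tested with the two-sided likelihood ratio test of edgeR 4.0.16 (R 4.3.3). Benjamini-Hochberg adjustment was over all genes tested in the cell type, with a threshold of 0.05. With these nuclei the study described this test only for the genotype effect under normal rearing, and here it served every comparison. For rearing effects in its other data, the study used the quasi-likelihood test on sequenced nuclei and the likelihood ratio test on imaged sections. SE was obtained from the fold change and the root of its likelihood ratio statistic. The quasi-likelihood test, DESeq2 1.42.0, other size factors, no filter, a sex term, thinned UMIs, 50 nuclei, 1 fit of all libraries and leaving out each library were alternatives. The script was tested on simulated data. CPM used all UMIs of the cell type in the library as the total. Libraries held 168632129 to 288774016 UMIs, but the total behind a CPM value could be far smaller, such as 51097 in SMC-Peri of DR GR-KO male.

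Members and lists were chosen with earlier results of these data known. Values per library are given for the 6 called pairs with the lowest adjusted p in each comparison, up to 10 also called by the quasi-likelihood test, and members called the same way in at least 3 types; for levels, for the member of each family with the widest ratio over neuron types among those reaching 20 CPM. Other called members were named after their values were seen. Promoters came from RefSeq (GRCm38.p6), and gene positions from GENCODE annotation of GRCm38. Protein sequences were not analysed here, and some genes that the rule chose are not reported here.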

Additional observations from a re-analysis of the deposited data

Results flagged for a closer look

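The 2 results below stood out because the effect of GR-KO differed between rearing conditions by the test of the difference itself, edgeR's likelihood ratio test of the interaction (effect in NR minus effect in DR, adjusted over all genes tested in L2/3). These 2 were the calls of that test among the members, and their number was 12 with a sex term and 0 to 22 when 1 library was left out. For Scn7a in L2/3 neurons the difference was 4.14 ± 0.88 (SE) on the log2 scale, adjusted p = 0.00295, with 0.124 and 0.0981 CPM in NR GR-Con, 0.523 and 0.248 in NR GR-KO, 0.392 and 0.332 in DR GR-Con, and 0.114 and 0.0171 in DR GR-KO. The quasi-likelihood test gave 0.465, and the call was lost without NR GR-Con male (4.29), NR GR-Con female (4.01) or DR GR-KO female (3.32). Within DR the 2 GR-KO libraries were below the GR-Con libraries, and within NR they were above them.

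For Cacng2 in L2/3 neurons the difference was −0.81 ± 0.19 (SE), adjusted p = 0.0152, with 98.3 and 106 CPM in NR GR-Con, 98.9 and 95.8 in NR GR-KO, 88.7 and 101 in DR GR-Con, and 153 and 145 in DR GR-KO. The quasi-likelihood test gave 0.264, and the call was lost when any library but NR GR-KO female or DR GR-Con female was left out (log2FC -0.90 to -0.74). The DR GR-KO libraries also had the lowest median UMI counts per nucleus of the 8 libraries, and the part of depth per nucleus in this difference was not tested. Cre UMIs were also present in L2/3 neurons of the 4 GR-KO libraries (47 to 262), and their part in both results was not tested.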

How the results depend on the processing

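Counts are of called pairs of a member and a cell type. For DR against NR the count was 34 in GR-Con, 64 in GR-KO and 55 over both genotypes, and for GR-KO against GR-Con it was 21 in NR, 10 in DR and 5 over both rearings, with 2 for the interaction. The quasi-likelihood test gave 10, 27 and 41 for rearing, 10, 0 and 2 for genotype, and 0 for the interaction. DESeq2 gave 9 for genotype in NR and 3 over both rearings. A sex term gave 101 for rearing in GR-KO, 33 and 17 for genotype in NR and DR, and 12 for the interaction. Without a filter on low counts, genotype over both rearings gave 3. With 1 fit of all 8 libraries, genotype in NR gave 8. Neuron types alone, a setting chosen after seeing the data, gave 35 for rearing in GR-KO, 3 for genotype in NR and 0 over both rearings.

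Leaving out 1 library at a time gave 12 to 74 for rearing in GR-Con (12 without NR GR-Con male and 12 without NR GR-Con female, 74 without DR GR-Con male), 26 to 84 in GR-KO (26 without DR GR-KO male, 41 without DR GR-KO female) and 29 to 79 over both genotypes (29 without DR GR-KO male, 79 without DR GR-Con male). For genotype it gave 6 to 27 in NR (8 without NR GR-Con male, 6 without NR GR-Con female), 0 to 35 in DR (35 and 23 without DR GR-Con male or female, 6 and 0 without DR GR-KO male or female) and 0 to 18 over both rearings (0 without NR GR-KO male and 0 without DR GR-KO female, 18 without DR GR-Con female, and 1 to 3 without NR GR-Con male or female, NR GR-KO female or DR GR-KO male). The interaction gave 0 to 22 (0 without NR GR-Con male or DR GR-KO female, 22 without DR GR-Con male). These fits leave 1 group with a single library, which is assumed to vary like the others. The count of members highest in a neuron type was 36, and 35 to 37 without 1 library. The cause of these differences was not tested.

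Of the 69 pairs that the rule for values per library chose, 50 stayed called under the quasi-likelihood test, 58 under DESeq2, 69 under RLE size factors, 65 without the filter, 69 with a sex term and 67 with thinned UMIs, and none reversed under these or in the 368 fits that left out a library, 279 of which kept the call. No paired analysis was possible because the deposited library names carry no replicate numbers, apart from the block by sex, the sex term above, which the 1 male and 1 female library of each group allow. Types with few nuclei (ChC, microglia, VLMC, SMC-Peri) limit what could be tested there.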
